A study of Mus musculus with 17 samples.

Results

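Gene expression in dI4 interneurons of the mouse spinal cord was compared between embryonic day E12.5 and the day of birth (P0). Every dI4 array of these ages was taken, 3 at E12.5 and 3 at P0, out of 17 arrays in the series. The mice carried Ptf1a-Cre and Rosa.lsl.YFP. Cre recombinase is made where the transcription factor Ptf1a is made, and the reporter then stays on in the cell and in all its descendants. Cells with YFP were sorted from freshly dissociated spinal cord, and their RNA was amplified and hybridized to Affymetrix arrays. One comparison also used V1 interneurons, a ventral inhibitory class sorted in the same way from En1-Cre; Rosa.lsl.YFP mice at the same ages, with 3 arrays an age. The reporter was shared by all groups. Arrays of a group are labelled as biological replicates. The number of animals behind an array, the strain and the sex are not given in the sources used here, so p-values measure the spread between these arrays.

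The dI4 and late-born dILA neurons arise from Ptf1a-expressing progenitors in the dorsal spinal cord, settle in the dorsal horn and use GABA, glycine or both. Ptf1a acts with proneural factors to set the inhibitory fate, and Lbx1, Pax2, Lhx1 and Lhx5 mark the young neurons. Between mid-gestation and birth such neurons leave the cell cycle, extend axons, make synapses and split into subsets that carry peptides such as enkephalin, dynorphin, galanin and neuropeptide Y. In the same weeks the cord's progenitors turn from making neurons to making astrocytes and oligodendrocytes.

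The deposited values are log2 expression per probe set, and the ages sit on different scales. Medians over all probe sets lay between 3.16 and 3.23 on the E12.5 arrays and between 5.51 and 5.56 on the P0 arrays. The 6 arrays were therefore quantile normalized together, over 1 probe set for each of 20679 genes, and all levels below are log2 on that joint scale unless another is named. A percentile is a gene's rank within its array, with 100 as the highest. Directions are thus relative to the other genes of an array. On the values as deposited the median tested gene stood 2.37 higher at P0, so smaller falls on the joint scale have a positive sign there. Each age was one set of arrays, so age and anything else that set those arrays apart cannot be told apart. In bulk RNA, a change in the number of cells of a type and a change in RNA per cell cannot be told apart either.

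The label was checked against markers of the class. Ptf1a itself read between 2.16 and 2.18 at E12.5 and between 2.11 and 2.13 at P0. Bacterial control probe sets, which have no match in the mouse, read about as high, and Ptf1a was not tested. Pax2 was not analysed here. The other class markers were present at both ages: Lbx1 averaged 10.15 ± 0.18 (SD, n = 3) at E12.5 and 8.70 ± 0.28 at P0, and the GABA-synthesizing enzyme gene Gad2 averaged 13.50 ± 0.03 and 13.87 ± 0.11. Tlx1 and Tlx3, which mark dorsal excitatory neurons, lay at the control level on all 6 arrays. Other genes of the excitatory list were well expressed, among them Slc17a6 at 9.36 ± 1.07 and 10.12 ± 0.07 and Pou4f1, so the sorted cells did not lack excitatory transcripts. The sorted P0 cells also carried astrocyte transcripts among the brightest on the array, described below.

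Of 11342 genes tested, 8119 (71.6%) passed an adjusted p of 0.05 (limma, Benjamini-Hochberg over all tested genes), 3759 higher at P0 (33.1%) and 4360 lower (38.4%). With a 2-fold change also required, 5665 passed (49.9%), 2675 higher (23.6%) and 2990 lower (26.4%). The arrays of both ages did not overlap for 76.5% of tested genes. The median size of a difference was 1.03, and 5% of genes differed by more than 4.01. Passing the test was thus the rule for a gene here. The list counts and sizes below are read against these shares and values. Of the genes called higher, 654 lay at the control level on all 3 E12.5 arrays. For such genes the fold is a lower bound, set against the highest control probe set of each E12.5 array. That level lay between 3.02 and 3.07 on the joint scale. On the P0 arrays it lay between 2.49 and 2.53, so genes at the control level at both ages can read lower at P0. Genes were tested where they lay above the array median on at least 3 arrays. A gene below the median on all E12.5 arrays, as these were, could enter only through its P0 arrays, so the filter fixed its direction. The same held in reverse for genes below the median at P0, among them 47 called lower at the P0 control level.

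Within each age 1 array stood apart. At E12.5, replicate 2 differed 2-fold from replicates 1 and 3 in 850 and 1030 genes, while the other pair differed in 437. At P0, replicate 3 differed 2-fold from replicates 1 and 2 in 942 and 754 genes, while the other pair differed in 51. The mean level of the mitosis and cell cycle list was 4.97 on E12.5 replicate 2, against 7.75 and 7.25 on the other E12.5 arrays. It was 5.65 on P0 replicate 3, against 4.03 and 4.08 on the other P0 arrays. Counts without 1 or both of these arrays are given beside the lists whose counts they moved most.

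The largest fitted difference was that of Slc6a7, a proline transporter of neurons. It read 1.95, 1.95 and 1.94 at E12.5 and 12.13, 12.44 and 12.38 at P0, at least 621-fold higher. It lay at the control level on every E12.5 array and stood at a mean percentile of 97.2 at P0. Aqp4 was at least 703-fold higher, a larger bound. Slc4a4, Mmd2, Tnc, Thy1, Penk and Shc3, at the control level at E12.5 as well, had bounds between 140-fold and 454-fold. Aldoc, Ndrg2 and Gng4, measured at both ages, rose by 8.90, 8.08 and 7.83. Aqp4 (a water channel), Slc4a4 (a bicarbonate transporter), Aldoc and Ndrg2 are astrocyte genes, Tnc codes for the matrix protein tenascin C, Thy1 is a surface protein of mature neurons and Penk codes for the enkephalin precursor.

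Among the falls, Hbb-y, an embryonic globin of red blood cells, had the largest fitted difference and was at least 236-fold lower. Hsd11b2, an enzyme that inactivates glucocorticoids, was at least 197-fold lower. It read 10.84, 8.55 and 11.01 at E12.5 and between 2.07 and 2.10 at P0. Crabp2, which carries retinoic acid in the cell, and Epha3, a guidance receptor, each fell by 7.20. Igfbpl1 and Col2a1 were at least 122-fold and 95.8-fold lower. For BB163080, Cecr2, Tuba3a, Msx3 and LOC552873 the log2 differences lay between −6.27 and −5.70. Robo3 was also among these genes, and 2 of its 3 P0 arrays read below the highest control probe set. Msx3 is a homeobox gene of dorsal progenitors and Robo3 a receptor of commissural axons. These genes were picked for the size of their change between ages whose arrays do not overlap.

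The transcription factors that identify the class were mostly lower at P0 but remained well expressed. Of 16 listed, 13 had a probe set and 12 were tested. Among these 7 were lower and 1 higher, against 38.4% and 33.1% of all tested genes, and 4 did not pass. The list's median difference was −1.17. Lhx5 fell most. It read 11.18, 9.82 and 10.81 at E12.5 and 5.71, 6.95 and 7.38 at P0, a log2 difference of −3.92 (SE 0.53, adjusted p = 0.000822). Its percentile went from 89.1 to 61.7, and no P0 array reached an E12.5 array.

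Its relative Lhx1 changed less. It read 12.33, 12.21 and 12.56 at E12.5 and 10.81, 10.67 and 10.20 at P0 (−1.81, SE 0.20, adjusted p = 0.000298). The homeobox gene Gbx2 fell by 3.18 and the AP-2 factor Tfap2b by 1.82. Lbx1 (−1.46), Sall3 (−1.39) and the corepressor gene Skor1 (−0.96) also fell, but on the deposited scale these 3 and Lhx1 had positive differences between 0.02 and 1.73, still below that scale's all-gene median of 2.37. The list's median there was 1.10. Skor1 stayed among the brightest genes of every array, at percentile 99.8 at E12.5 and 99.0 at P0.

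The member that rose was Bhlhe22, a basic helix-loop-helix factor of dorsal interneurons. It read 7.91, 10.42 and 8.34 at E12.5 and 10.74, 11.04 and 11.18 at P0 (2.10, adjusted p = 0.0254). The E12.5 replicate that stood apart lay close to the P0 arrays, and the call was lost when any 1 of the other 5 arrays was left out. Rorb, a nuclear receptor of dorsal horn inhibitory neurons, showed the same arrangement, with 5.12, 9.22 and 5.22 at E12.5 and 9.61, 9.73 and 8.55 at P0. Rorb did not pass (2.78, adjusted p = 0.0667). Gbx1 (−0.93), Tfap2a (−0.93) and Pax8 (−0.14) did not pass either, with adjusted p between 0.176 and 0.618. Other probe sets of Tfap2a gave −2.73 and −3.18.

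**Figure D1:**
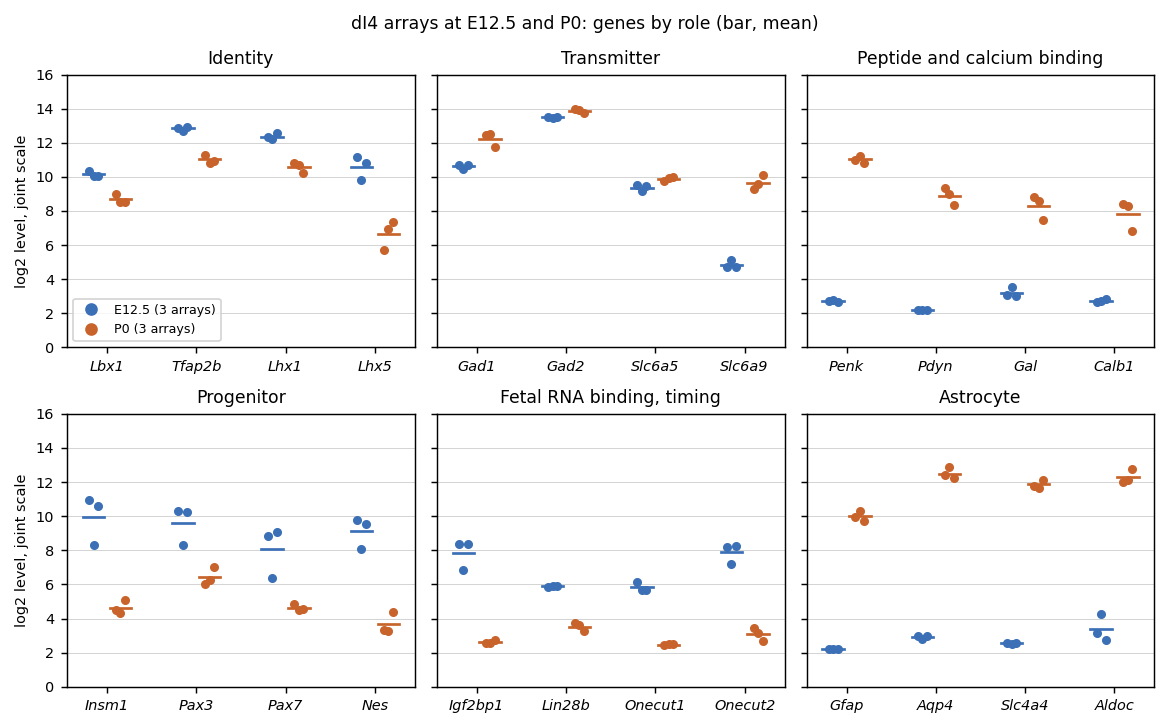
Joint-scale log2 levels of 24 genes on each dI4 array, grouped by role, with E12.5 arrays in blue, P0 arrays in orange and bars at the mean of 3 arrays. Identity factors and progenitor genes lie lower at P0, Gad1 and Slc6a9 higher, and Penk, Pdyn, Gfap and Aqp4 go from near 2 or 3 to between 8 and 13.

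Genes of inhibitory transmission were mostly higher at P0 on the joint scale. All 7 listed genes were tested, and 6 were higher, none was lower and 1 did not pass (median difference 1.62). Among all tested genes 33.1% were higher and 38.4% lower. With median centring 2 were higher and 2 lower (median 0.35), and with the mean of all probe sets 4 were higher and 1 lower (median 0.69). The glycine transporter gene Slc6a9, which clears glycine and is also used by astrocytes, rose most. It read 4.71, 5.12 and 4.70 at E12.5 and 9.31, 9.56 and 10.12 at P0 (4.82, SE 0.24, adjusted p = 1.07e-05). Its arrays were far apart and its percentile went from 50.2 to 82.8.

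Gad1, the second GABA-synthesizing enzyme gene, went from 10.68, 10.46 and 10.70 to 12.46, 12.49 and 11.78 (1.62, adjusted p = 0.00082). Every P0 array lay above every E12.5 array. The vesicular inhibitory transporter gene Slc32a1 rose by 1.70 on the probe set used, while its other probe set went the other way.

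Gad2 changed by 0.38 (adjusted p = 0.0207) and Slc6a5, the neuronal glycine transporter gene, by 0.53 (adjusted p = 0.0149). Both signs turned when each array was centred on its own median (−1.84 and −0.34), and the Gad2 call was lost without any 1 of the 4 arrays that did not stand apart. Abat, which breaks GABA down, did not pass (0.17, adjusted p = 0.534).

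Genes that divide dorsal horn inhibitory neurons into subsets split into those that appeared by P0 and those already present. Of 14 listed, 11 were tested, with 7 higher, none lower and 4 that did not pass. The median was 4.31, against −0.11 over all tested genes, of which 33.1% were higher and 38.4% lower. Penk, Pdyn, Kcnip2, Calb1, Gal and Calb2 lay below the median on all E12.5 arrays, so the filter let them be tested only as rises. With median centring 7 were higher and 2 lower (median 2.98). Penk read 2.74, 2.79 and 2.66 at E12.5 and 10.99, 11.25 and 10.83 at P0, at least 254-fold higher (fitted difference 8.29, adjusted p = 9.66e-07). Pdyn, the dynorphin precursor gene, read between 2.19 and 2.22 at E12.5 and 9.36, 9.0 and 8.34 at P0, at least 58.2-fold higher. Both lay at the control level on every E12.5 array and stood clear of it on every P0 array.

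Galanin (Gal) was dim at E12.5, at 3.05, 3.55 and 3.01, and read 8.81, 8.57 and 7.45 at P0 (5.07, adjusted p = 5.56e-05). The calcium-binding protein gene Calb1 was at least 27.9-fold higher at P0, at 8.40, 8.27 and 6.84, and Calb2 at least 9.55-fold higher, at 6.22, 6.66 and 6.01. For Gal, Calb1 and Calb2 the lowest P0 array was the one that stood apart. The potassium channel partner gene Kcnip2 rose by 5.58 and the neurokinin receptor gene Tacr3 by 3.19.

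Npy and Sst, which code for neuropeptide Y and somatostatin, behaved otherwise. Npy read 11.52, 12.13 and 11.37 at E12.5 and 11.83, 11.84 and 11.57 at P0 (0.08, adjusted p = 0.769). Sst read 8.38, 7.81 and 8.32 and then 8.08, 8.23 and 7.82 (−0.13, adjusted p = 0.587). The ages overlapped for both genes, and Npy stood near percentile 95 at either age (94.9 and 95.3). Npy1r, a receptor for neuropeptide Y, read 7.85 on the E12.5 array that stood apart and between 4.33 and 5.43 on the other 5, and did not pass.

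Genes of the synaptic vesicle and its release machinery rose nearly as a set on the joint scale. All 22 listed were tested, with 20 higher, 1 lower and 1 that did not pass (median 1.69). Among all tested genes 33.1% were higher and 38.4% lower. With median centring 14 were higher and 4 lower (median 0.80), and with the mean of all probe sets 17 and 3 (median 1.51). Stx1a, a plasma membrane SNARE gene, read between 2.15 and 2.18 at E12.5 and 7.66, 7.76 and 7.99 at P0, at least 27.2-fold higher. Vamp1, its vesicle partner, read between 2.16 and 2.23 and then 8.84, 8.78 and 6.43, at least 31.5-fold higher. Both were at the control level at E12.5 and could be tested only as rises. Vamp1 was lowest at P0 on the array that stood apart.

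Syn2, which tethers vesicles, went from 7.90, 9.45 and 6.82 to 12.25, 12.10 and 12.16 (4.12, adjusted p = 0.00137). Complexin 2 (Cplx2) rose by 5.17, the vesicle protein gene Sv2b by 4.11 and the calcium sensor gene Syt2 by 3.06. Snap25 was near the top of the arrays already and rose by 0.66, but fell by 1.85 when arrays were centred on their medians. Bassoon (Bsn), an active zone scaffold, was the member called lower (−1.40), but it turned to 0.95 on the deposited scale and a second probe set also went up. Rab3a did not pass (0.32, adjusted p = 0.133).

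Receptors for GABA and glycine followed. Of 18 tested genes 13 were higher and 1 lower, against 33.1% and 38.4% of all tested genes, and 4 did not pass (list median 2.49). With median centring 10 were higher and 3 lower (median 2.34). The GABA-A subunit gene Gabrg1 read 5.49, 5.53 and 5.76 at E12.5 and 10.43, 10.50 and 9.98 at P0 (4.71, SE 0.18, adjusted p = 4.2e-06). Gabrb1 rose by 4.49, Gabra3 by 4.06, Gabra5 by 3.97 and Gabrg3 by 3.93. The P0 arrays of all 5 subunit genes lay above their E12.5 arrays.

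The chloride exporter gene Slc12a5 (KCC2), whose product makes GABA and glycine inhibitory in mature neurons, read 9.16, 9.89 and 9.29 at E12.5 and 13.34, 13.34 and 12.85 at P0 (3.73, SE 0.24, adjusted p = 3.16e-05). Slc12a2 (NKCC1), which imports chloride in young neurons, read 8.58, 9.02 and 8.62 and then 8.49, 8.52 and 8.62 (−0.20, adjusted p = 0.281). The exporter's arrays were far apart while the importer's overlapped, but another probe set of Slc12a2 gave −1.81. The glycine receptor gene Glra1 was lower at P0 (−1.46, adjusted p = 0.00629) but turned to 0.79 on the deposited scale.

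Among glutamate receptors 10 of 13 tested genes were higher, 2 were lower and 1 did not pass (median 2.08). With median centring 5 were higher and 3 lower (median 1.14). The kainate subunit gene Grik1 read 5.95, 8.20 and 5.93 at E12.5 and 11.38, 11.39 and 11.02 at P0 (4.57, adjusted p = 0.000861). The NMDA subunit gene Grin3a rose by 4.33 and Grin2d by 2.74, and the metabotropic receptor gene Grm7 by 3.21. E12.5 replicate 2 was the highest E12.5 array for Grik1, Grin3a and Grm7 and still lay below every P0 array.

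Grm5 went from 8.52, 11.79 and 8.5 to 12.75, 12.77 and 12.80 (3.17, adjusted p = 0.0181), a call that was lost without any 1 of the other 5 arrays. Gria1 rose by 3.0, with a second probe set of opposite sign. Grik3 (−1.36) and Grik2 (−1.11) were lower, and turned to 0.48 and 0.90 on the deposited scale. The Grik2 call was also lost without any 1 of 4 arrays. Gria3 did not pass (0.06, adjusted p = 0.758).

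Voltage-gated channel genes were mixed, with 14 of 23 tested higher, 3 lower and 6 that did not pass (median 1.16). With median centring 7 were higher and 5 lower (median 0.12). Kcna2, a potassium channel of axons, was at least 4.70-fold higher, and the calcium channel gene Cacna1e rose by 2.99. Kcna2 lay at the control level at E12.5 and could be tested only as a rise. The sodium channel gene Scn3a stayed between 11.54 and 11.96 on all 6 arrays (0.06, adjusted p = 0.767).

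Cytoskeletal genes of young neurons stayed high as a group. Of 23 tested, 7 were higher and 5 lower, against 33.1% and 38.4% of all tested genes, and 11 did not pass. The list's median was −0.07, turning to 0.98 on the deposited scale and −2.20 with median centring. The growth cone gene Gap43 rose by 2.12 and the tubulin-binding gene Stmn4 by 2.13. Doublecortin (Dcx) lay between 14.00 and 14.36 on all 6 arrays and tubulin beta 3 (Tubb3) between 12.76 and 13.25, and neither passed. The Dcx probe set used lay at the top of the arrays, and its other probe sets were lower at P0 (−1.45, −1.12 and −0.35). The helix-loop-helix factors of newborn neurons on this list did fall: Nhlh1 read 9.0, 8.21 and 9.11 at E12.5 and 3.96, 4.31 and 5.32 at P0 (−4.24, adjusted p = 0.000186). Nhlh2 fell by 3.71, the Notch ligand-like gene Dlk1 by 3.39 and the RNA-binding gene Elavl3 by 1.23, the last turning to 0.60 on the deposited scale.

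Genes of mature neurons rose in part, with 12 of 19 tested higher and 2 lower, against 33.1% and 38.4% of all tested genes. The remaining 5 did not pass. The list's median was 1.05, turning to −0.52 with median centring. Thy1 read 2.04, 2.02 and 2.06 at E12.5 and 10.68, 10.84 and 10.72 at P0, at least 209-fold higher. Beta-synuclein (Sncb) was at least 10.7-fold higher. Thy1 and Sncb lay at the control level at E12.5 and could be tested only as rises. Tau (Mapt) rose by 2.06 and the kinase gene Camk2b by 3.91. Rbfox3 (NeuN), a standard marker of postmitotic neurons, averaged 11.98 at both ages (SD 0.14 and 0.26, adjusted p = 0.996).

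**Figure D2:**
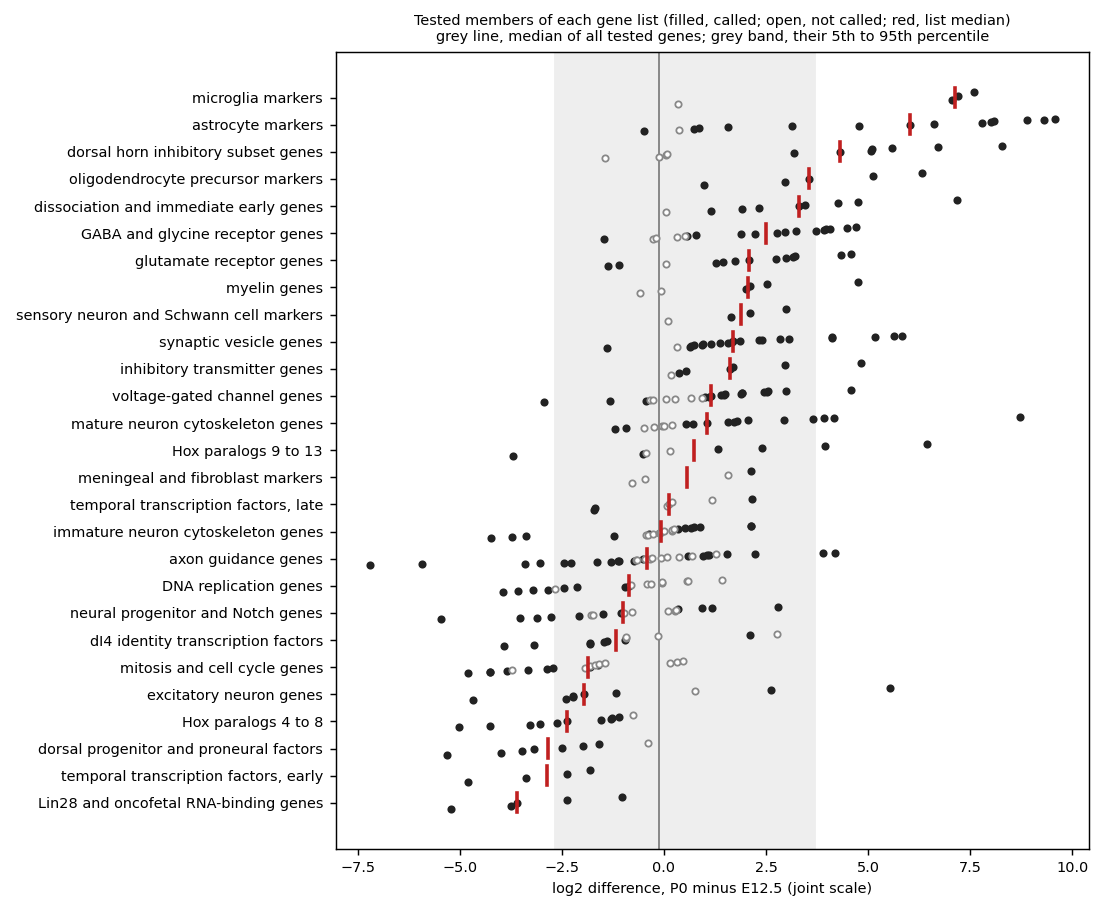
Log2 difference (P0 minus E12.5, joint scale) of the tested members of 27 gene lists, sorted by list median (red bar), with filled points for genes that passed the test and open points for those that did not. Medians run from −3.61 for the Lin28 list to 7.12 for microglia markers, against −0.11 for all tested genes (grey line).

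Dorsal progenitor and proneural factors fell. Of 18 listed, 8 were tested, with none higher, 7 lower and 1 that did not pass (median −2.84, and −0.50 on the deposited scale); 7 of the 18 lay at the control level at E12.5 and 8 at P0. Insm1, a zinc finger factor of cells that are leaving the cycle, read 10.96, 8.31 and 10.59 at E12.5 and 4.51, 4.32 and 5.09 at P0 (−5.31, adjusted p = 0.000744). E12.5 replicate 2 was the lowest E12.5 array and P0 replicate 3 the highest P0 array.

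Pax7 and Pax3, which mark dorsal progenitors, fell by 3.47 and 3.19. Neurog2 fell by 2.49 and turned to 0.43 on the deposited scale. Sox11 and Sox4, which act in newborn neurons, fell by 1.99 and 1.59. Sox11 read 14.12, 14.03 and 14.15 at E12.5 and 12.04, 11.89 and 12.40 at P0, and stayed at percentile 96.5. Neurod1 did not pass (−0.39, adjusted p = 0.464).

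Of 18 neural progenitor and Notch genes tested, 4 were higher, 7 were lower and 7 did not pass (median −1.0, turning to 1.22 on the deposited scale). The share lower was near that over all tested genes (38.4%). Without E12.5 replicate 2, 10 were lower, and without both arrays that stood apart 11 were. Nestin (Nes), an intermediate filament of progenitors, read 9.80, 8.06 and 9.53 at E12.5 and 3.35, 3.27 and 4.37 at P0 (−5.47, adjusted p = 0.000185). The surface marker Prom1 fell by 3.52, the Notch ligand Dll3 by 3.11 and Sox9 by 2.76, the last turning to 0.24 on the deposited scale. Nes and Dll3 lay below the median on all P0 arrays and could be tested only as falls.

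By contrast the BMP target Id3 (2.79, adjusted p = 0.0341, lost without any 1 of the P0 arrays) and the Notch target Hey1 (1.17, adjusted p = 0.00926) were higher. Sox2, vimentin (Vim) and Fabp7, which progenitors share with astrocytes, did not pass. Sox2 read 10.88, 8.58 and 10.78 at E12.5 and 8.89, 9.0 and 9.42 at P0 (−0.97, adjusted p = 0.204), and the P0 arrays lay inside the E12.5 range. Fabp7 lay between 13.23 and 13.90 on all 6 arrays.

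Mitosis and cell cycle genes were lower or did not pass: of 25 listed 18 were tested, with none higher, 9 lower and 9 that did not pass (median −1.87, turning to 0.15 on the deposited scale). The shares over all tested genes were 33.1% higher and 38.4% lower. Cenpf, a kinetochore protein of dividing cells, read 10.49, 7.23 and 10.03 at E12.5 and 3.38, 3.28 and 6.65 at P0 (−4.81, SE 1.22, adjusted p = 0.0122). Ube2c, which drives exit from mitosis, read 11.36, 8.35 and 11.09 and then 5.30, 5.15 and 7.59 (−4.25, adjusted p = 0.00941). Kif11, the spindle motor Eg5, read 9.96, 7.79 and 10.02 and then 4.66, 4.49 and 7.08 (−3.84, adjusted p = 0.0091). In each, the lowest E12.5 array was the one that stood apart there and the highest P0 array the one that stood apart at P0, and the ages still did not overlap.

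Nusap1 fell by 4.26, Cenpe by 3.32 and cyclin D1 (Ccnd1) by 2.87, and Cenpe lost its call without any 1 of the 4 arrays that did not stand apart. Mki67 read 12.41, 10.30 and 11.96 at E12.5 and 9.11, 9.51 and 11.26 at P0 and did not pass (−1.60, adjusted p = 0.0981). Ccnb1 (−3.72, adjusted p = 0.0529) and Top2a (−1.81, adjusted p = 0.397) did not pass either. Without E12.5 replicate 2, 14 of the 18 were lower, and without P0 replicate 3, 12 were. With both left out, 17 were lower and the median was −3.73. Leaving out both was chosen after the data were seen, and it takes out the lowest E12.5 array and the highest P0 array for these genes.

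The promoters of these 3 members are shown as examples because late cell cycle genes are known for 2 short promoter elements. Of 6 lower members with a window these are the 3 that held both, picked after the matches were seen. Windows of 250 bases before to 50 after the start site come from RefSeq (GRCm38.p6), at chr1:189688037-189688336 on the minus strand for Cenpf, chr2:164769679-164769978 on the plus strand for Ube2c and chr19:37376132-37376431 on the plus strand for Kif11. Capitals mark the core of the cell cycle genes homology region (TTTGAA, or TTCAAA on the other strand) and the CCAAT box (CCAAT, or ATTGG on the other strand), and neighbouring matches may share letters.
Cenpf: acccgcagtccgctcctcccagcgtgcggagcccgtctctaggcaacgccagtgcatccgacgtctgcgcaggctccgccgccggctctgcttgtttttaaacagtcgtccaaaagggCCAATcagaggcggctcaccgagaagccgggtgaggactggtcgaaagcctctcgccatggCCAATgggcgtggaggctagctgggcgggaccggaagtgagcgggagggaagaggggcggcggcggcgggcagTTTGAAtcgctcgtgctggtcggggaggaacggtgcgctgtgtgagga
Ube2c: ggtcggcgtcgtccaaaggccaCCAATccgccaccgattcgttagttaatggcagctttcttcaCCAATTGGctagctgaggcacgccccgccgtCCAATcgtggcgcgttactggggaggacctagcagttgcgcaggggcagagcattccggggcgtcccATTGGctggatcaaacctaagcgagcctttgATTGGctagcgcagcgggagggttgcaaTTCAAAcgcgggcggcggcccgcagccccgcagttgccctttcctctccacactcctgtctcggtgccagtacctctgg
Kif11: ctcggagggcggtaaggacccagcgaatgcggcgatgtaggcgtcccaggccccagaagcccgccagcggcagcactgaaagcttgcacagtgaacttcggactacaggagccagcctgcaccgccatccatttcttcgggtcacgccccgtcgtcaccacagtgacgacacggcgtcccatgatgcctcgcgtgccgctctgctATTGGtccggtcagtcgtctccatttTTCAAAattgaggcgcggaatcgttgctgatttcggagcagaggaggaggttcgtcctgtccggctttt

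Each of these windows held 1 homology region core. Cenpf held 2 CCAAT boxes, Ube2c 6 and Kif11 1. Of 19 windows found for the 25 listed genes, 13 (68.4%) held both elements, against 7.12% of all 27025 windows. The core, with or without a CCAAT box, was in 68.4% and 18.1%, and the CCAAT box, with or without the core, in 84.2% and 37.9%. Of the 9 members that were lower, 6 had a window in the table and 3 of these held both. Nusap1, which fell as much as Ube2c, held neither, and Bub1 and Cenpe held the CCAAT box alone. A match is a description of the letters and not a shown binding site.

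DNA replication genes showed smaller differences, with none of 17 tested higher, 8 lower and 9 that did not pass (median −0.85). Over all tested genes 33.1% were higher and 38.4% lower. On the deposited scale 12 were higher and 1 lower (median 1.83). Mcm2, a subunit of the replicative helicase, read 8.25, 6.44 and 8.84 at E12.5 and 3.61, 3.87 and 4.19 at P0 (−3.95, adjusted p = 0.00143). Cdc45, its partner, read 7.0, 6.99 and 7.17 and then 3.53, 3.49 and 3.43 (−3.57, SE 0.11, adjusted p = 2.75e-06). Unlike Cenpf, Ube2c and Kif11, Cdc45 was level across the arrays of each age. With the dI4 and V1 arrays normalized together, Cdc45 changed by −3.69 in dI4 and −3.42 in V1. None of the 17 replication genes passed the test of the difference from V1. Mcm2 and Cdc45 lay below the median on all dI4 P0 arrays and could be tested only as falls. Rfc4 fell by 3.20 and Rrm2 by 2.83, while Pcna stayed between 10.64 and 11.41 and did not pass (adjusted p = 0.842). Without E12.5 replicate 2, 12 replication genes were lower and 1 higher, and without both arrays that stood apart 13 and 1.

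**Figure D3:**
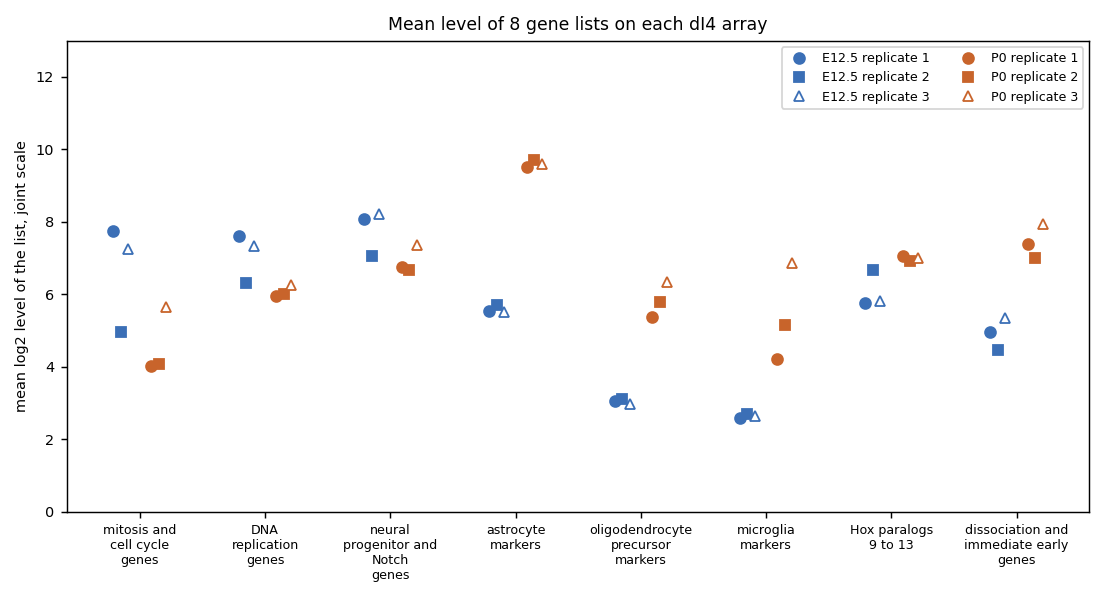
Mean joint-scale log2 level of 8 gene lists on each dI4 array (E12.5 blue, P0 orange, 1 symbol for each replicate number), over all members with a probe set. E12.5 replicate 2 and P0 replicate 3 lie toward each other in the mitosis list, at 4.97 and 5.65, while the astrocyte list separates the ages, from 5.51 to 5.70 against 9.52 to 9.70.

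Transcription factors known to mark early-born spinal neurons fell. All 4 tested were lower (median −2.88, and −1.11 on the deposited scale). Onecut1 and Onecut2 lay below the median on all P0 arrays and could be tested only as falls. Onecut2 read 8.17, 7.21 and 8.27 at E12.5 and 3.45, 3.14 and 2.69 at P0 (−4.79, SE 0.34, adjusted p = 4.47e-05). Onecut1 went from 6.15, 5.69 and 5.67 to the control level, at least 10.0-fold lower. The large homeobox genes Zfhx4 and Zfhx3 fell by 2.38 and 1.80, and Zfhx3 stayed at percentile 97.2.

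Factors known to mark late-born neurons showed no common direction. Of 7 tested, 1 was higher, 2 were lower and 4 did not pass (median 0.13, turning to −0.85 with median centring). Without E12.5 replicate 2, 3 were higher and 2 lower. Nfib read 9.71, 11.22 and 9.26 at E12.5 and 11.04, 11.07 and 11.61 at P0, with the E12.5 array that stood apart inside the P0 range (1.18, adjusted p = 0.0788). Nfia read between 10.18 and 11.28 on all 6 arrays (adjusted p = 0.611). Nfix was higher (2.15) and Zbtb20 lower (−1.71), and for each of them another probe set had the opposite sign. Neurod6 was lower (−1.70) and turned to 0.57 on the deposited scale.

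Lin28 and the fetal RNA-binding genes, which keep cells in an early developmental state and repress let-7 microRNAs or bind growth-related messages, had a median of −3.61 (−0.85 on the deposited scale), and all 5 tested were lower. Of these, Igf2bp1 and Lin28b lay below the median on all P0 arrays, so the filter let them be tested only as falls. Igf2bp1 read 8.38, 6.84 and 8.35 at E12.5 and 2.57, 2.56 and 2.77 at P0 (−5.22, SE 0.43, adjusted p = 8.38e-05). Igf2bp2 fell by 3.75 and Igf2bp3 by 3.61. Lin28b read 5.87, 5.91 and 5.93 and then 3.73, 3.60 and 3.26 (−2.37, adjusted p = 2.61e-05), but 0.10 on the deposited scale. Dicer1, which processes microRNA precursors, fell by 1.02 and turned to 1.20 there.

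Axon guidance genes were called in each direction about as often as all tested genes (33.1% higher, 38.4% lower). Of 30 tested, 8 were higher, 12 were lower and 10 did not pass (median −0.41, turning to 1.65 on the deposited scale). Epha3 read 11.91, 10.06 and 12.07 at E12.5 and 4.46, 3.82 and 4.15 at P0 (−7.20, SE 0.55, adjusted p = 6.19e-05). Robo3, needed for axons to cross the midline, read 8.44, 7.94 and 8.66 and then 2.10, 1.95 and 3.24 (−5.92, SE 0.38, adjusted p = 3.06e-05). Epha3 went from percentile 92.7 to 45.7 and Robo3 from 72.6 to 19.0. Both lay below the median on all P0 arrays and could be tested only as falls.

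The netrin receptor gene Dcc read 12.99, 12.70 and 13.05 at E12.5 and 9.55, 9.57 and 9.44 at P0 (−3.40, SE 0.13, adjusted p = 4.88e-06), and the slit receptor gene Robo2 fell by 3.04. Epha7 fell by 2.45 and turned to 0.73 on the deposited scale. In the other direction, the secreted cue Sema3c read 4.04, 2.53 and 2.56 and then 7.46, 7.08 and 7.16 (4.19, adjusted p = 0.000223). The adhesion molecule gene Dscam rose by 3.90, the netrin receptor gene Unc5d by 2.22 and the plexin gene Plxnc1 by 1.54.

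Genes of excitatory neurons were dim or lower at P0, with exceptions. Of 20 listed, 19 had a probe set, 11 of which lay at the control level at E12.5 and 8 at P0. Of the 9 tested, 2 were higher and 6 lower, against 33.1% and 38.4% of all tested genes, and 1 did not pass. The list's median was −1.97, turning to 0.86 on the deposited scale. Isl1, Sim1, Lhx9 and Evx1 lay below the median on all P0 arrays and could be tested only as falls. Isl1, which marks another dorsal class and motor neurons, read 7.93, 6.69 and 7.12 at E12.5 and between 2.51 and 2.63 at P0 (−4.68, adjusted p = 3.38e-05). Sim1 and Lhx9 fell by 2.39 and 2.23. Lmx1b (−2.23), Evx1 (−1.97) and Pou4f1 (−1.17) were also lower, and turned to 1.05, 0.21 and 0.86 on the deposited scale.

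The peptide gene Grp read between 2.13 and 2.16 at E12.5 and 7.29, 7.62 and 8.13 at P0, at least 25-fold higher. Grp lay at the control level at E12.5 and could be tested only as a rise. Tac1, the substance P precursor gene, was higher by 2.61 on the probe set used, with the opposite sign on another. The vesicular glutamate transporter gene Slc17a6, which inhibitory neurons lack by definition, read 8.73, 10.59 and 8.76 at E12.5 and 10.13, 10.04 and 10.18 at P0 (0.76, adjusted p = 0.221). Excitatory transcripts were thus present in the sorted cells at both ages, and their part in the other results was not tested.

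Hox genes give neurons their place along the cord, and their paralog groups are described in turn, with no test of one group against the other. Of 11 tested in groups 4 to 8, none was higher, 10 were lower and 1 did not pass (median −2.37, and −0.11 on the deposited scale, where 3 were higher and 3 lower). Hoxa4, Hoxb7 and Hoxc6 lay below the median on all P0 arrays and could be tested only as falls. Hoxa4 read 9.33, 6.49 and 8.78 at E12.5 and 3.15, 3.27 and 3.14 at P0 (−5.01, adjusted p = 0.000997). Hoxb7 fell by 4.27, Hoxa5 by 3.29, Hoxc5 by 3.03, Hoxb4 by 2.62 and Hoxc6 by 2.37, and Hoxd8 did not pass (−0.75, adjusted p = 0.0543).

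Of 8 tested in groups 9 to 13, 4 were higher and 2 lower, against 33.1% and 38.4% of all tested genes. The remaining 2 did not pass. The list's median was 0.74, turning to −0.25 with median centring. Hoxd10, a lumbar gene, read 3.55, 9.16 and 2.47 at E12.5 and 11.42, 11.23 and 11.83 at P0 (6.43, SE 1.68, adjusted p = 0.014). Hoxd11 rose by 3.95, Hoxc10 by 2.40 and Hoxd9 by 1.33, and the Hoxd9 call was lost without any 1 of 3 arrays. Hoxd10, Hoxd11, Hoxc10 and Hoxd9 were all highest, among E12.5 arrays, on the one that stood apart. Hoxb9 fell, from 11.62, 11.54 and 11.32 to 8.22, 8.05 and 7.10 (−3.70, adjusted p = 8.92e-05).

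**Figure D4:**
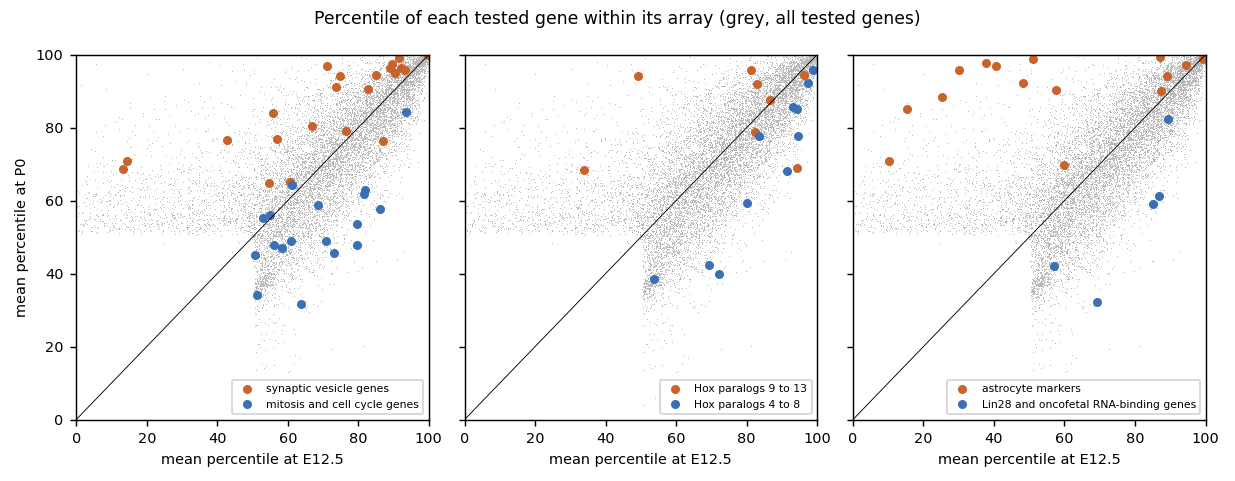
Mean percentile of each tested gene within its array at E12.5 (x axis) and P0 (y axis), with lists picked out in colour and all tested genes in grey. Synaptic vesicle genes and astrocyte markers lie on or above the diagonal with few exceptions, mitosis genes and Lin28-related genes mostly below it, and the Hox groups fall on both sides.

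Astrocyte markers were the largest group of rises among the glial lists. Of 20 listed, 19 had a probe set and 15 were tested, with 13 higher, 1 lower and 1 that did not pass (median 6.03). Of the 19, 7 lay at the control level at E12.5 and 1 at P0, and those 7 could be tested only as rises. Aqp4, the water channel of astrocyte endfeet, read 2.99, 2.79 and 2.96 at E12.5 and 12.40, 12.88 and 12.21 at P0, at least 703-fold higher. Slc4a4 read between 2.52 and 2.59 and then 11.79, 11.66 and 12.14, at least 454-fold higher. Gfap, the intermediate filament of astrocytes, read between 2.20 and 2.23 and then 9.93, 10.32 and 9.74, at least 124-fold higher.

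These 3 genes lay at the control level on every E12.5 array and near each other on all 3 P0 arrays. Aldoc rose by 8.90 and Ndrg2 by 8.08, and Ndrg2 stood at percentile 98.8 at P0. The mean over the list lay between 5.51 and 5.70 on the E12.5 arrays and between 9.52 and 9.70 on the P0 arrays, so the array that stood apart at P0 did not differ here. The glutamate transporter gene Slc1a2 was lower (−0.48, adjusted p = 0.02), turned to 0.69 on the deposited scale and lost its call without P0 replicate 1 or 2. The part of astrocyte RNA in the other P0 results was not tested.

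Oligodendrocyte precursor markers rose in all 5 tested of 10 listed (median 3.55). Of the 10, 7 lay at the control level at E12.5 and 0 at P0. Olig1, Sox8, Pdgfra and Olig2 lay below the median at E12.5, so the filter let them be tested only as rises. The mean over all 10 lay between 2.98 and 3.1 at E12.5 and between 5.36 and 6.33 at P0. Olig1 read 2.84, 2.83 and 2.83 at E12.5 and 8.35, 8.68 and 10.46 at P0, at least 69.9-fold higher. Sox8 read between 2.14 and 2.16 and then 6.46, 6.67 and 8.70, at least 18.9-fold higher. Both were highest on the P0 array that stood apart. Ptprz1, which astrocytes also express, rose by 3.55, the growth factor receptor gene Pdgfra by 2.97 and Olig2 by 0.97.

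Myelin genes rose in 4 of 6 tested, of 12 listed (median 2.06). Myelin basic protein (Mbp) read 4.19, 4.22 and 4.19 at E12.5 and 10.01, 10.47 and 6.41 at P0 (4.76, SE 1.04, adjusted p = 0.00664). Mbp lay below the median on all E12.5 arrays and could be tested only as a rise. Cldn11 rose by 2.02 and Cnp by 2.53. Mbp and Cldn11 were lowest at P0 on the array where Olig1 and Sox8 were highest. Mag, Mog and Opalin, markers of later myelin, stayed below the tested range.

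Markers of cells outside the neural lineage were checked in the same way. Of 12 microglia markers 10 lay at the control level at E12.5 and 2 at P0, and 3 of the 4 tested were higher. Csf1r, the receptor microglia need, read between 2.33 and 2.34 at E12.5 and 6.95, 9.60 and 11.59 at P0, at least 81.1-fold higher. Tyrobp and Ctss were at least 84.8-fold and 116-fold higher, in the same order of arrays. Csf1r, Tyrobp and Ctss could be tested only as rises, since they lay at the control level at E12.5. The mean over all 12 markers lay between 2.58 and 2.69 at E12.5. On the P0 arrays it ran from 4.22 to 6.87, highest on replicate 3, while Tmem119 and Itgam lay at the control level on all 6 arrays. The part of microglial RNA in the other results was not tested.

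Of 12 endothelial and pericyte markers, 9 lay at the control level at E12.5 and 5 at P0, Pecam1 and Cdh5 at both ages. The list's mean stayed between 2.67 and 2.82 on all 6 arrays, and the 1 gene tested did not pass. No ependymal or floor plate marker passed the filter, and 7 of 8 lay at the control level at either age. Of 8 motor neuron markers 6 lay at the control level at either age, Chat and Mnx1 among them. The 2 tested were Isl1, which fell (above), and Ret, which rose by 3.0. Of 4 fibroblast markers tested, Col1a2 rose (2.14) and Col3a1 did not pass (1.57, adjusted p = 0.0934). Of 4 sensory and Schwann cell markers tested 3 were higher, among them Ret, which dorsal horn neurons can also express. Hbb-y, the red cell globin named above, was the 1 erythroid gene tested.

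Of 9 tested genes that respond within minutes to neuronal activity or to dissociation, 8 were higher (median 3.30). Without E12.5 replicate 2, 5 were higher and 1 was lower, and Egr2 was among the calls lost. Without both arrays that stood apart, 6 were higher and 1 was lower. Egr1 read 3.16, 3.22 and 5.54 at E12.5 and 11.24, 10.82 and 11.36 at P0 (7.17, adjusted p = 0.000138). Fos read 6.53, 7.14 and 9.05 and then 12.41, 11.91 and 12.65 (4.75, adjusted p = 0.000832). E12.5 replicate 3 was the highest E12.5 array for both and still lay below every P0 array. Fosb and Nr4a1 were at least 13.3-fold and 9.54-fold higher, and could be tested only as rises. Jun did not pass (0.04, adjusted p = 0.942). The list moved with age, and its part in the other results was not tested.

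The change with age in dI4 was then set against that in V1, with the 12 arrays normalized together and V1 P0 replicates 1 and 3, which correlated at 0.999 and had 1 gene 2-fold apart, entered as their mean. The difference between the changes passed the test for 612 genes (5.4%). The dI4 change was above that of V1 for 397 (3.5%) and below for 215 (1.9%). The genes tested were those kept by their level on the dI4 arrays alone. Genes dim in dI4 at both ages were not tested, whatever their level in V1, so these counts do not weigh the directions evenly. The count of all genes that passed lay between 426 and 1198 when single arrays were left out, highest without dI4 E12.5 replicate 2. It was 347 without the averaged V1 P0 sample.

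Many glial genes differed between the classes. The dI4 change was above for 10 of 15 astrocyte markers and 4 of 5 oligodendrocyte precursor markers, and below for none. Gfap averaged 2.21 ± 0.02 and 10.03 ± 0.29 in dI4 (SD, n = 3), and 2.20 ± 0.01 (n = 3) and 3.12 ± 0.71 (n = 2) in V1, so the change was larger in dI4 by 6.89 (SE 0.35, adjusted p = 8.43e-06). Tnc (7.49), Slc4a4 (6.73), Slc1a3 (6.61) and Aqp4 (6.48) differed in the same direction. Aldoc changed by 8.96 in dI4 and 8.24 in V1 (adjusted p = 0.662) and Ndrg2 by 8.14 and 6.31 (adjusted p = 0.167), so these did not pass. The change in V1 was 3.14 for Aqp4, and it was 0.49 for Olig1 against 6.37 in dI4. Changes within V1 alone were not tested.

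Neuronal genes differed too. Of 11 inhibitory subset genes the dI4 change was above for 5 and below for 1. Calb1 changed by 5.14 in dI4, while the difference in V1 was 0.32 from a level of 8.09 ± 0.24 (SD, n = 3) at E12.5 (difference of changes 4.82, adjusted p = 0.000838). The values for Pdyn were 6.73 in dI4 and 3.12 in V1. Calb2 was the one below, with a change of 4.33 in dI4 and 7.01 in V1. The change in Fos was 4.74 in dI4 and 0.66 in V1 (adjusted p = 0.0352).

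Lower values at P0 differed for a few factors. The change in Onecut2 was −4.87 in dI4 and −2.25 in V1, where it averaged 10.91 and then 8.66 (difference −2.62, adjusted p = 0.0157). The change in Hoxa5 was −3.29 in dI4 and −0.70 in V1. Otp, a homeobox gene that averaged 13.54 in V1 at E12.5 and 8.49 in dI4, changed by −4.93 in dI4 and −0.76 in V1. For Onecut2, Hoxa5 and Otp the call was lost in at least 1 fit that left an array out. The gamma-synuclein gene Sncg changed by −2.50 in dI4 and 2.68 in V1. Of the 18 mitosis and cell cycle genes none passed the test of the difference (median −1.62), and of the 22 synaptic vesicle genes 1 did (median 0.12).

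**Figure D5:**
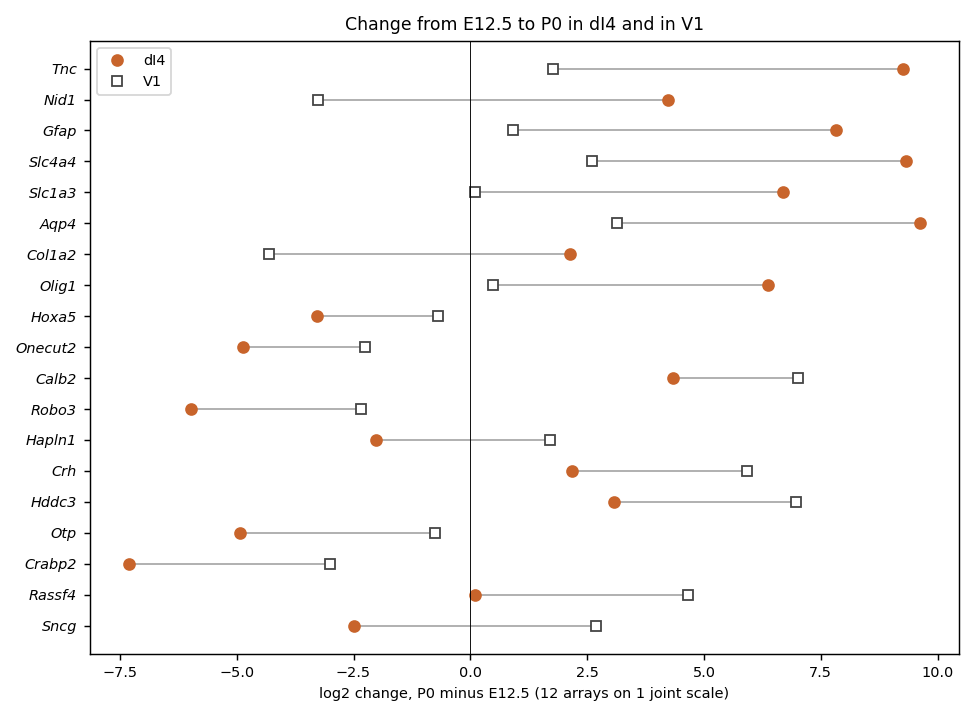
Log2 change from E12.5 to P0 of 19 genes in dI4 (filled circles) and V1 (open squares), with the 12 arrays on 1 joint scale and genes sorted by the difference between the changes. Gfap lies at 7.82 in dI4 and 0.92 in V1, and Sncg at −2.50 and 2.68.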

How the data were processed

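RNA of sorted dI4 cells had been hybridized to Affymetrix arrays. The deposited values are log2 expression per probe set, made by the authors, and Partek 6.6, GCRMA and RMA are listed in the submitters' processing notes without a role or an order. The authors' table repeats these log2 values (all 766717 cells were identical) beside their V1-against-dI4 columns, a deposited signed fold (a score) and a deposited p-value, which were not used in any result. The members, gene lists and tests were chosen with earlier results of these data known.

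Of 45101 probe sets, 37827 named 1 gene, 1398 named several and were left out, 5812 had no symbol and 64 were controls. Of those naming 1 gene, 34668 matched the RefSeq gene table (GRCm38.p6) by identifier, and 3821 symbols were updated. The probe set with the highest mean over the 6 dI4 arrays stood for each of 20679 genes, of which 9531 had more than 1. The 6 arrays were quantile normalized together, 11342 genes above the array median on at least 3 arrays were kept, and limma 3.58.1 (R 4.3.3) was fitted with Benjamini-Hochberg adjustment over these. Residual degrees of freedom were 4. The V1 comparison was an interaction in 1 fit of both classes and ages. It tested the same 11342 genes, which were filtered on the dI4 arrays and not on V1. The number of arrays limits the precision. On simulated data with these 11342 genes, 54 of 100 genes changed by 1 on the log2 scale were recovered and 79 of 100 changed by 2, with 6 unchanged genes among 139 calls. The simulation changed far fewer genes than the 71.6% called here and drew both ages on a shared scale. Its rates therefore do not describe this comparison.

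A gene was at the control level where it lay at or below the highest of 12 bacterial control probe sets on all 3 arrays of an age. Same-numbered arrays of the 2 ages had deviation correlations of −0.13, 0.20 and 0.14, so the numbers were not taken as pairs. Genes named were Ptf1a, the 12 largest rises and 12 largest falls, all identity and transmitter genes, up to 6 called members in each direction and 3 that did not pass from every other list, and the 8 largest differences in each direction from V1 with listed genes among those called. Some genes this rule names are not reported here. Markers named because they lay at the control level were picked after their values were seen. The alternatives tried were other scalings, ranks, filters and probe set rules, other variance settings, a replicate block and leaving out arrays. P5 arrays entered only the alternatives over all 17 arrays.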

Additional observations from a re-analysis of the deposited data

Results flagged for a closer look

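The genes below had an age change that differed between dI4 and V1 in the test of the difference itself (limma, Benjamini-Hochberg over 11342 genes). The genes tested had been kept by their level on the dI4 arrays alone. All values are the dI4 change minus the V1 change on the log2 scale, and no explanation was tested.

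The dI4 change was above that of V1 by 7.49 for Tnc, 7.47 for Nid1, 6.89 for Gfap, 6.73 for Slc4a4, 6.61 for Slc1a3, 6.48 for Aqp4, 6.44 for Col1a2 and 5.89 for Olig1. Gfap, Slc4a4, Slc1a3 and Aqp4 are astrocyte genes, and Olig1 marks the oligodendrocyte lineage. Nid1 and Col1a2 code for matrix proteins. Nid1 changed by 4.22 in dI4 and −3.26 in V1, and Col1a2 by 2.14 and −4.30. The V1 E12.5 arrays were uneven for both, at 7.41 ± 1.19 for Nid1 and 8.54 ± 2.64 for Col1a2 (SD, n = 3).

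The dI4 change was below that of V1, with differences of −5.18 for Sncg, −4.57 for Rassf4, −4.30 for Crabp2, −4.16 for Otp, −3.88 for Hddc3, −3.75 for Crh, −3.72 for Hapln1 and −3.61 for Robo3. Among listed genes it was below for Calb2 (−2.68), Onecut2 (−2.62) and Hoxa5 (−2.59). Crh, the corticotropin-releasing hormone gene, changed by 2.18 in dI4 and 5.93 in V1. The calls for Col1a2, Rassf4, Otp, Robo3, Onecut2 and Hoxa5 were lost in at least 1 fit that left out an array.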

How the results depend on the processing

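Scaling decided the balance of directions. On the values as deposited 10510 genes were called, 9957 higher and 553 lower (94.7% of calls higher), and with each array centred on its median 8970 were called and 28.9% of calls were higher, against 46.3% on the joint scale. The median tested gene moved by 2.37 and −0.81 on these scales. With no filter 15249 genes were called, 5726 higher and 9523 lower. That fit added dim genes, and the control level on the joint scale was lower at P0 (2.49 to 2.53) than at E12.5 (3.02 to 3.07). The part of this in the added calls was not tested. Leaving out single arrays gave 7108 to 8275 calls, 3262 to 3811 higher and 3846 to 4464 lower.

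Of 195 named genes, of which Ptf1a was not tested, 25 that passed on the joint scale had the opposite sign on the deposited scale, where not all of them passed: Bsn 0.95, Glra1 0.79, Grik3 0.48, Grik2 0.90, Kcna1 2.01, Elavl3 0.60, Ank3 0.74, Neurog2 0.43, Sox9 0.24, Hmga2 0.94, Zbtb20 0.47, Neurod6 0.57, Lin28b 0.10, Dicer1 1.20, Epha7 0.73, Plxna3 0.60, Lmx1b 1.05, Evx1 0.21, Pou4f1 0.86, Slc1a2 0.69, Hoxa9 1.33, Lhx1 0.07, Lbx1 0.93, Skor1 0.02 and Sall3 1.73. Median centring turned Snap25 (−1.85), Gad2 (−1.84) and Slc6a5 (−0.34), and the mean of all probe sets turned Tac1 (−0.57) and Slc32a1 (−1.25). Percentile ranks turned none and took the call from 6.

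The replicate numbers did not pair the arrays. With the number as a block, 7859 genes were called for age. For the difference from V1, the block fit entered the V1 P0 arrays separately and called 994 genes. Separate entry without a block called 1103, so the count was lower with the block. The main fit, with its averaged V1 P0 sample, called 612. That main count was 426 to 1198 when single arrays were left out and 347 without the averaged V1 P0 sample. Why it moved when arrays were left out was not tested. Separate entry without a block was an alternative chosen after the data were seen. Other alternatives were chosen in the same way. Without both arrays that stood apart 8722 genes were called for age, and with the closest P0 pair averaged 7253. Genes at the control level have only a bound.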
